A study of Mus musculus with 6 samples.

Results

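The clock output genes described here are Dbp, Tef, Hlf, Nfil3, Ciart, Bhlhe40, Bhlhe41, Rora and Usp2, taken by name from a table of read counts for 55401 mouse genes. All 9 were present under a single Ensembl identifier each and all 9 passed the filter on low counts, among 19717 genes tested. The list holds regulators of transcription, with the exception of Usp2, which encodes a deubiquitinating enzyme whose transcript cycles with the clock. The RNA came from glomeruli, the filtering units of the kidney, of DKD mice (diabetic kidney disease, as the series title spells it out) and of Control mice, with 3 libraries in each group. The labels give the tissue and the words DKD and Control as genotype. Strain, sex, age, the way disease was induced, the separate origin of each replicate and the clock hour of tissue collection are not given in the labels, and a p-value here reflects how far the libraries scatter.

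The circadian clock is a transcriptional loop in which CLOCK and BMAL1 activate genes through E-box elements, and the PER and CRY proteins they induce repress them in turn. The output factors carry this rhythm to other genes. DBP, TEF and HLF are bZIP proteins rich in proline and acidic residues (PAR bZIP) that activate genes through D-box elements. NFIL3, also called E4BP4, binds the same elements as a repressor and is normally high when DBP is low. In kidney, PAR bZIP factors are known for control of detoxification enzymes, and clock factors for the daily rhythm of salt and water transport.

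Totals ran from 71154026 to 75328417 counts in DKD and from 72451052 to 83576494 counts in Control libraries. Levels are given as CPM, read counts divided by library size with TMM scaling factors, and differences as log2 fold changes of DKD over Control with a standard error (SE). The call threshold is an adjusted p under 0.05 by the quasi-likelihood test of edgeR with Benjamini-Hochberg adjustment over all genes tested. Glomerular markers were present in every library: 8 podocyte markers summed to between 318 and 442 CPM in DKD and between 451 and 646 CPM in Control. Proximal tubule RNA was far more abundant, with 8 markers summing to between 8240 and 16269 CPM in DKD and between 15772 and 35612 CPM in Control. Values therefore cannot be assigned to glomerular cells alone, and in such bulk RNA fewer cells of a type and less RNA per cell cannot be told apart. Control replicate 3 had the highest tubule sum and DKD replicate 3 the lowest. For the clock output genes whose fold change rests on either, values are given below with and without it.

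Promoter sequences show which clock elements lie near the starts of these genes. RefSeq windows on build GRCm38.p6, from 250 bases before to 50 after a transcription start, were held for 8 of the 9 genes in 9 windows. The motifs named below were searched on both strands, and capitals mark the matches. The counts were aligned to GRCm39, so the positions refer to the RefSeq table alone. The windows of Dbp and Nfil3 are shown because these members had the largest differences between groups, and that of Tef because it holds an E-box. Shorter stretches of Ciart and Hlf are shown for their matches, and Ciart was added after its motif count was seen.
Dbp, chr7:45704997-45705296, plus strand: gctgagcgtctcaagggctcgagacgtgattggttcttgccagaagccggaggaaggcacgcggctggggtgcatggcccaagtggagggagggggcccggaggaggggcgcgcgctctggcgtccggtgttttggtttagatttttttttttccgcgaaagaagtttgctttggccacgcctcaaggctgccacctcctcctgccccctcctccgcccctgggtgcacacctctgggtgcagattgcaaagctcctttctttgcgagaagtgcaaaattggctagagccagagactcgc
Tef, chr15:81802423-81802722, plus strand: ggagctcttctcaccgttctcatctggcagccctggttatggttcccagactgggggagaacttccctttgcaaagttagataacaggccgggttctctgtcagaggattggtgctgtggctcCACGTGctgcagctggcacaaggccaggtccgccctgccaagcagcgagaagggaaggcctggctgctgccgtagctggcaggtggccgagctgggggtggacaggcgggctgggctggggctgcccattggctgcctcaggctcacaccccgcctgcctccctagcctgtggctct
Nfil3, chr13:52980990-52981289, minus strand: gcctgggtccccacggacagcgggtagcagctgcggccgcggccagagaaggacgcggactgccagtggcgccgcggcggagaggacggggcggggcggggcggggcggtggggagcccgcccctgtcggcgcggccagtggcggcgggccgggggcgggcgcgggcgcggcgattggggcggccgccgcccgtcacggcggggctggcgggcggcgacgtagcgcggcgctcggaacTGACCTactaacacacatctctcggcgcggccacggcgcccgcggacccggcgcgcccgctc
Ciart, chr3:95882259-95882358, minus strand: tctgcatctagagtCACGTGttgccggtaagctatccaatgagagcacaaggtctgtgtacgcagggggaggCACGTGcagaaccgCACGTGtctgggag
Hlf, chr11:90390868-90390967, minus strand: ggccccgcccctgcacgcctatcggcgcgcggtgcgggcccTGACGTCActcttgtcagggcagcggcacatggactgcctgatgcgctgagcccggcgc

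The E-box CACGTG was found in 4 of the 9 windows, against 7.15% of the 32851 windows in the RefSeq table. Ciart held it 3 times, at 116, 58 and 44 bases before the start. Both Tef windows held it, at 127 and 138 bases, and the Bhlhe41 window at 153 bases. The Nfil3 window held AGGTCA, the core half-site of the element that ROR and REV-ERB receptors bind, in reverse orientation at 12 bases (16.3% of all windows). The Hlf window held the cyclic AMP response element TGACGTCA at 9 bases (1.79% of all windows). The E-box variant CACGTT (4.68% of all windows) and the D-box forms TTATGTAA (0.938%) and TTACGTAA (0.119%) were found in none of the 9. A match of letters is not a binding site, and the E-boxes known to drive Dbp lie partly in its introns, outside the window shown. No matches overlapped one another in these windows.

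By the call threshold, 0 of the 9 genes changed with edgeR, against 1.16% of all genes tested (143 higher and 85 lower in DKD). With library totals as the only scaling edgeR called 275 genes, 101 higher and 174 lower, and the median over all genes shifted to a log2 value of −0.13. At an unadjusted p under 0.05 there were 3 members, Nfil3, Dbp and Tef, against 22.6% of all genes. DESeq2 called 2, Nfil3 and Dbp, against 13.7% of the genes it tested, and limma-voom called 1, Nfil3. Over all 19717 genes tested limma-voom called 204, the count to set beside its calls in the lists below. For 3 of the 9 (33.3%) the DKD and Control values did not overlap, which is near the background of 30.7% over all genes. Of the 9 log2 fold changes 7 were below 0, against 49.8% of all genes, and their median was −0.36 against 0.0029 over all genes tested.

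**Figure D1:**
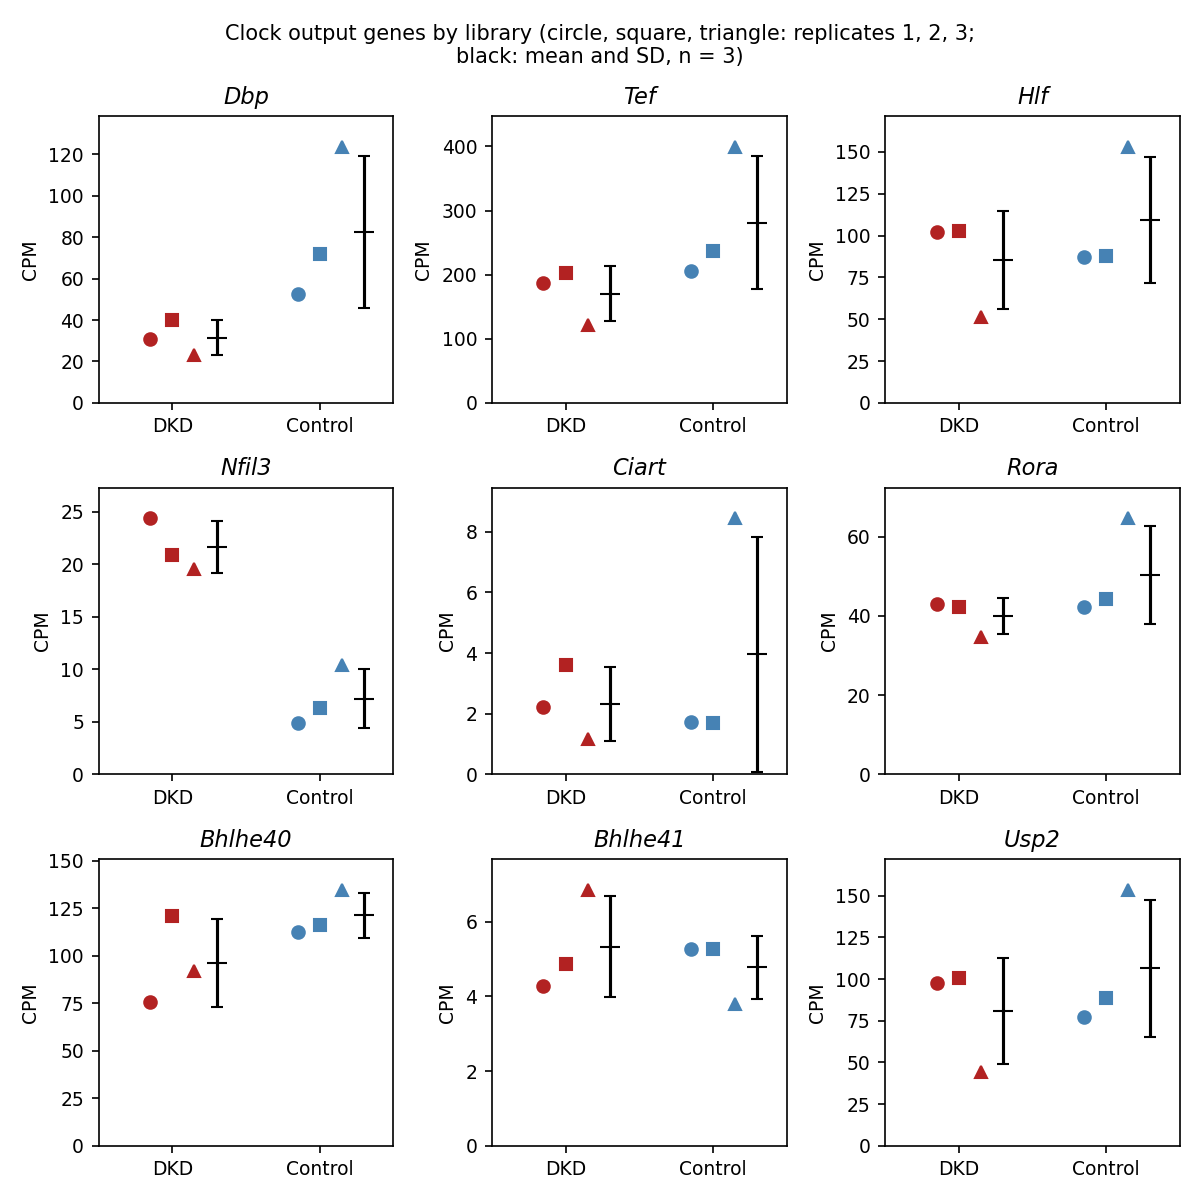
Level of each clock output gene in CPM (vertical axis, from 0) in the DKD and Control libraries, with replicates 1, 2 and 3 as circle, square and triangle and the mean and SD (n = 3) in black. Nfil3 lies between 19.6 and 24.4 CPM in DKD and between 4.90 and 10.4 CPM in Control, and in the panels of Dbp, Tef, Hlf, Ciart, Rora and Usp2 the Control triangle is the highest point and the DKD triangle the lowest.

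Among the D-box activators, Dbp, whose transcript swings most strongly over the day in many organs, differed most. Dbp was measured at 31.0, 40.0 and 23.2 CPM in DKD replicates 1 to 3, against 52.5, 72.1 and 124 CPM in Control replicates 1 to 3. Every DKD library lay below every Control library, and Control replicate 3 was the highest by a wide margin. The mean was 31.4 ± 8.43 CPM in DKD and 82.7 ± 36.7 CPM in Control (SD, n = 3 each). The log2 fold change was −1.40 ± 0.34 (SE; 95% confidence interval −2.19 to −0.61), a 2.64-fold lower level, with an adjusted p of 0.0803 by edgeR. DESeq2 gave the lowest adjusted p among 17 alternatives, 0.00135, and the highest was 0.236. Without Control replicate 3 the log2 fold change was −0.99, with an adjusted p of 0.0790, and without DKD replicate 3 it was −1.22 (0.236). Exons of Sphk2 cover 18.0% of the exonic bases of Dbp on the opposite strand, and whether counting used the strand is not given in the sources used here. Sphk2 itself was measured at 38.2 ± 4.72 CPM in DKD and 43.9 ± 0.288 CPM in Control (SD, n = 3 each), a log2 fold change of −0.20 ± 0.12.

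Tef encodes the activator that was most abundant per length of exon among the 9 genes in the Control libraries. It was measured at 187, 202 and 122 CPM in DKD, against 206, 237 and 399 CPM in Control. The groups did not overlap, but the highest DKD library and the lowest Control library were only a few CPM apart. Its log2 fold change was −0.72 ± 0.30 (SE; interval −1.42 to −0.028) with an edgeR adjusted p of 0.206, and it came to −0.38 when Control replicate 3 was left out and −0.53 when DKD replicate 3 was.

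Hlf, the activator first known from a fusion gene in leukaemia, was measured at 102, 102 and 51.5 CPM in DKD and at 87.1, 88.1 and 153 CPM in Control. DKD replicates 1 and 2 lay above Control replicates 1 and 2, while DKD replicate 3 was the lowest and Control replicate 3 the highest of the 6. Its log2 fold change was −0.36 ± 0.32 (SE; interval −1.12 to 0.40) with an edgeR adjusted p of 0.559, and it was −0.038 without Control replicate 3, −0.096 without DKD replicate 3 and −0.21 with the length trend removed. The interval includes both a fall and a rise, so a difference in Hlf was not resolved by these libraries.

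Nfil3, the repressor that competes for D-box elements and is also induced in immune cells, stood the other way from Dbp. Its level was 24.4, 20.9 and 19.6 CPM in DKD, against 4.90, 6.34 and 10.4 CPM in Control. The lowest DKD library was well above the highest Control library. The mean was 21.6 ± 2.47 CPM in DKD and 7.20 ± 2.83 CPM in Control (SD, n = 3 each), a 3.00-fold higher level. The log2 fold change was 1.59 ± 0.28 (SE; interval 0.94 to 2.23), and the edgeR adjusted p of 0.0511 lay just outside the threshold. Nfil3 passed it in 6 of 17 alternatives, among them limma-voom (0.0386), DESeq2 (1.82e-05) and a fit without Control replicate 3 (0.0163), within a range of 1.82e-05 to 0.173. It did not pass when any other library was left out, where the edgeR adjusted p lay between 0.0718 (without DKD replicate 2) and 0.163 (without DKD replicate 1). Summed leukocyte markers, 8 genes, lay between 115 and 257 CPM in DKD and between 96.1 and 190 CPM in Control. The groups overlapped on that sum, and its part in the Nfil3 difference was not tested.

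Because activators and repressor bind the same element, their levels were set against each other within each library, as ratios of CPM per kilobase of exon. Library scaling cancels in such a ratio. Dbp over Nfil3 was 0.860, 1.30 and 0.801 in DKD, against 7.25, 7.70 and 8.07 in Control. Control replicate 3, which stood apart in the level of Dbp, did not stand apart in this ratio. The mean ratio was 0.986 ± 0.271 in DKD and 7.68 ± 0.413 in Control (SD, n = 3 each), a difference of −2.99 on the log2 scale. Tef over Nfil3 was 1.97, 2.49 and 1.60 in DKD and 10.8, 9.64 and 9.92 in Control. Hlf over Nfil3 was 1.27, 1.49 and 0.798 in DKD and 5.39, 4.21 and 4.48 in Control. The groups were separate on all 3 ratios. They share Nfil3 as denominator and were chosen with the levels known, so they are a description and carry no test.

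**Figure D2:**
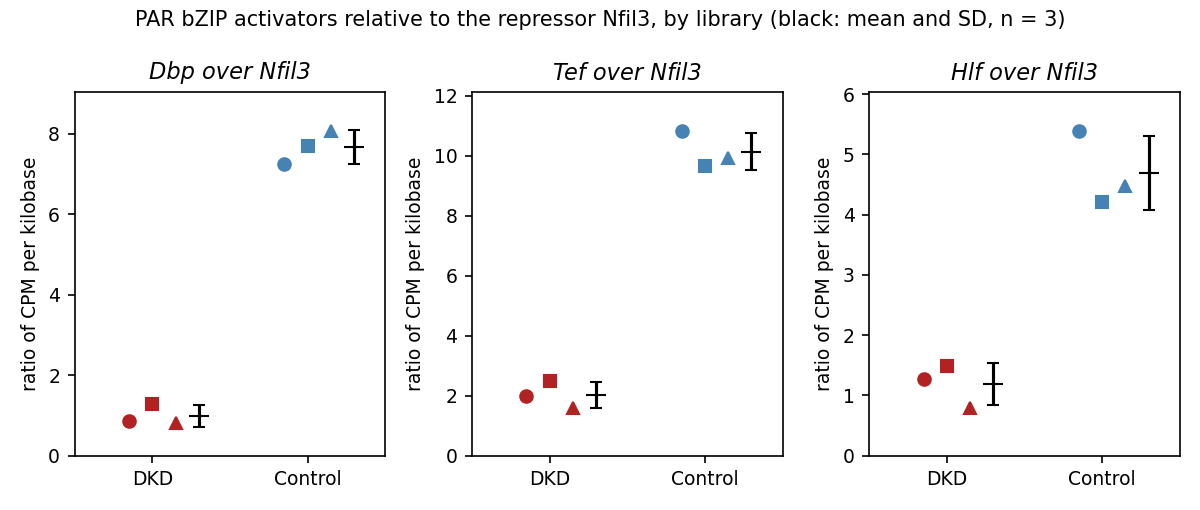
Ratio of CPM per kilobase of exon of Dbp, Tef and Hlf to Nfil3 (vertical axes, from 0) in each DKD and Control library, with the mean and SD (n = 3) in black. Dbp over Nfil3 lies between 0.801 and 1.30 in DKD and between 7.25 and 8.07 in Control.

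Ratios among the other members were compared in the same way. Dbp over Tef was 0.436, 0.520 and 0.499 in DKD and 0.670, 0.799 and 0.814 in Control. Dbp over Usp2 was 0.512, 0.638 and 0.849 in DKD and 1.10, 1.31 and 1.30 in Control. By contrast Hlf over Usp2 was 0.757, 0.732 and 0.846 in DKD and 0.814, 0.716 and 0.718 in Control. Hlf and Usp2 thus kept nearly the same proportion in all 6 libraries, although each varied widely in level. The proportions of Dbp to Tef and of Dbp to Usp2 were lower in every DKD library than in every Control library. Hlf over Tef was 0.645, 0.597 and 0.498 in DKD and 0.498, 0.437 and 0.451 in Control, so the groups met at 0.498. These ratios too were chosen with the levels known and carry no test. How often ratios of other genes separate the groups was not examined.

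The E-box repressors showed no difference that the test resolved. Ciart, also called CHRONO, binds BMAL1 and represses the clock complex. It was measured at 2.23, 3.60 and 1.16 CPM in DKD and at 1.73, 1.70 and 8.44 CPM in Control. Its mean rests on Control replicate 3: the log2 fold change was −0.76 ± 0.72 with all libraries (adjusted p 0.573) and 0.44 without that library, and it was −0.44 without DKD replicate 3. Ciart was also thinly covered, with between 83 and 639 counts per library.

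Bhlhe40 and Bhlhe41 encode DEC1 and DEC2, helix-loop-helix proteins that compete with CLOCK and BMAL1 for E-boxes, and Bhlhe40 also responds to hypoxia. Bhlhe40 was measured at 75.6, 121 and 92.0 CPM in DKD and at 113, 116 and 135 CPM in Control. DKD replicate 2 lay inside the Control range and the other DKD libraries below it. Its log2 fold change was −0.33 ± 0.19 (SE; interval −0.77 to 0.10) with an adjusted p of 0.334, and it was −0.19 without DKD replicate 1 and −0.55 without DKD replicate 2. Bhlhe41 was scarce, at 4.27, 4.88 and 6.86 CPM in DKD and 5.27, 5.26 and 3.81 CPM in Control, with a log2 fold change of 0.16 ± 0.26. It was the single member besides Ciart whose sign turned when a library was left out, with −0.063 without DKD replicate 3. The gene model Gm43909 covers 19.0% of the exonic bases of Bhlhe41 on the opposite strand.

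Rora encodes a nuclear receptor that activates Bmal1 through the element on which REV-ERB receptors repress it. It was measured at 42.9, 42.4 and 34.7 CPM in DKD and at 42.2, 44.2 and 64.6 CPM in Control, with a log2 fold change of −0.33 ± 0.19 (adjusted p 0.337). The 5 libraries other than Control replicate 3 lay close together, and without that library the log2 fold change was −0.11. It was −0.24 without DKD replicate 3 and −0.088 with the trend on gene length removed.

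Usp2 encodes a ubiquitin-specific protease with rhythmic transcripts in most organs, and has been linked to the sodium channel ENaC in kidney. Its level was 97.4, 101 and 43.9 CPM in DKD and 77.2, 88.7 and 154 CPM in Control. As with Hlf, DKD replicates 1 and 2 lay above Control replicates 1 and 2. For Usp2 the log2 fold change was −0.40 ± 0.37 (SE; interval −1.27 to 0.47) with an adjusted p of 0.569, and it came to −0.040 when Control replicate 3 was left out and −0.10 when DKD replicate 3 was.

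Per kilobase of exon, Tef had the highest mean of the 9, at 21.6 ± 5.40 CPM per kilobase in DKD and 35.7 ± 13.2 in Control (SD, n = 3 each). Dbp followed in Control, with 10.5 ± 2.82 in DKD and 27.6 ± 12.3 in Control. Bhlhe40 had 20.5 ± 4.89 in DKD and 25.8 ± 2.51 in Control, Usp2 had 16.8 ± 6.62 in DKD and 22.1 ± 8.55 in Control, and Hlf had 12.8 ± 4.39 in DKD and 16.4 ± 5.65 in Control. Within every Control library Tef lay above Dbp and Usp2 above Hlf. Dbp and Bhlhe40 changed places between Control libraries, and so did Bhlhe40 and Usp2. In DKD the order of Tef and Bhlhe40 also changed, with Bhlhe40 above Tef in DKD replicates 2 and 3. Rora, Nfil3, Ciart and Bhlhe41 were lower, between 0.711 and 3.85 CPM per kilobase in Control. In DKD the level of Nfil3 was 10.7 ± 1.22 CPM per kilobase, within the spread of Dbp and Hlf there.

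Variation inside the groups ran in the same way for most of the genes. In 6 of the 9 (66.7%), namely Dbp, Tef, Hlf, Ciart, Rora and Usp2, Control replicate 3 was the highest and DKD replicate 3 the lowest of all 6 libraries. That order held for 11.8% of all genes tested, and it was chosen after the values were seen. The same order was found in 7 of the 8 proximal tubule markers, whose part in it was not tested. Nfil3 could not meet that order over all 6 libraries, because every DKD library lay above every Control library. Inside the groups Nfil3 ran the same way. Control replicate 3 was its highest Control library at 10.4 CPM, and DKD replicate 3 its lowest DKD library at 19.6 CPM. Bmal1 (listed as Arntl), which normally peaks away from Dbp, was measured at 8.93, 11.9 and 13.0 CPM in DKD and at 11.1, 9.36 and 3.11 CPM in Control, so Control replicate 3 had the lowest level. The log2 fold change of Bmal1 was 0.52 ± 0.43 with all libraries and 0.14 without Control replicate 3.

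**Figure D3:**
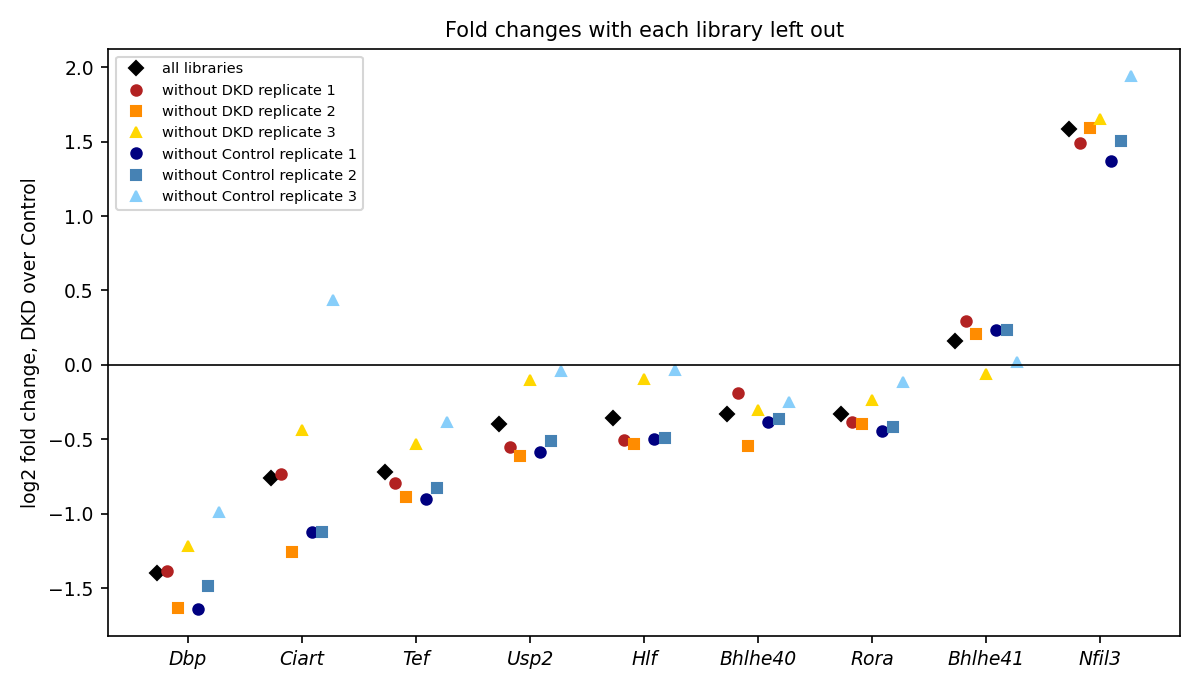
Log2 fold change of DKD over Control (vertical axis) for each clock output gene, with all libraries (black diamonds) and with each library left out in turn (coloured symbols). Nfil3 stays between 1.37 and 1.94 and Dbp between −1.64 and −0.99, whereas without Control replicate 3 Hlf and Usp2 reach −0.038 and −0.040 and Ciart 0.44.

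The core clock genes, which drive the output factors, were examined as a list of 16, all tested. Of these 1 rose and 0 fell by edgeR, against 1.16% of all genes called, and 6 (1 higher and 5 lower) had an unadjusted p under 0.05, against 22.6% of all genes. DESeq2 called 5, against 13.7% of the genes it tested, and limma-voom 1. The median log2 fold change was −0.20, against 0.0029 over all genes, and 6 of the 16 (37.5%) had groups without overlap, where all genes gave 30.7%. Cry1, the cryptochrome repressor of CLOCK and BMAL1, rose to 10.2, 8.03 and 10.2 CPM in DKD, against 2.87, 3.82 and 3.11 CPM in Control. Its log2 fold change was 1.53 ± 0.21 with an edgeR adjusted p of 0.0322. That call was lost without Control replicate 1, Control replicate 2, DKD replicate 1 or DKD replicate 3, where the adjusted p was 0.133, 0.0989, 0.130 and 0.106, and with no filter on low counts (0.0540). Fbxl21 encodes an F-box protein that acts on cryptochromes, and is named after its values were seen. It was scarce, at 1.20, 1.84 and 1.19 CPM in DKD and 4.53, 3.42 and 5.76 CPM in Control, and the groups did not overlap. Its log2 fold change was −1.70 ± 0.32 with an edgeR adjusted p of 0.0567, and over the alternatives that p ran from 3.34e-05 (DESeq2) to 0.186, passing also with the filter of at least 1 CPM (0.0460).

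Nr1d1 and Nr1d2 encode REV-ERB-alpha and REV-ERB-beta, repressors of Bmal1, Cry1 and Nfil3. Nr1d1 was measured at 41.6, 74.6 and 44.6 CPM in DKD and at 112, 126 and 91.4 CPM in Control, with no overlap, a log2 fold change of −1.03 ± 0.25 and an edgeR adjusted p of 0.0779. Nr1d2 was measured at 59.6, 72.7 and 49.6 CPM in DKD and at 92.9, 103 and 145 CPM in Control, with no overlap, −0.90 ± 0.21 and an adjusted p of 0.0755. Without Control replicate 3 the log2 fold change of Nr1d2 was −0.69. The Period genes, which encode the other repressors of the loop, did not separate the groups. Per1 was measured at 47.7, 58.9 and 20.0 CPM in DKD and 56.0, 61.6 and 49.5 CPM in Control. Per2 was measured at 48.9, 37.1 and 29.4 CPM in DKD and 16.3, 26.8 and 57.7 CPM in Control. Per3 was measured at 28.1, 24.4 and 17.4 CPM in DKD and 21.0, 31.8 and 49.4 CPM in Control. Their log2 fold changes were −0.40 ± 0.35, 0.19 ± 0.43 and −0.55 ± 0.32, each with overlapping groups, and leaving out Control replicate 1 or DKD replicate 1 turned that of Per2 to −0.14 or −0.015. Per1 moved to −0.063 without DKD replicate 3 and Per3 to −0.18 without Control replicate 3.

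**Figure D4:**
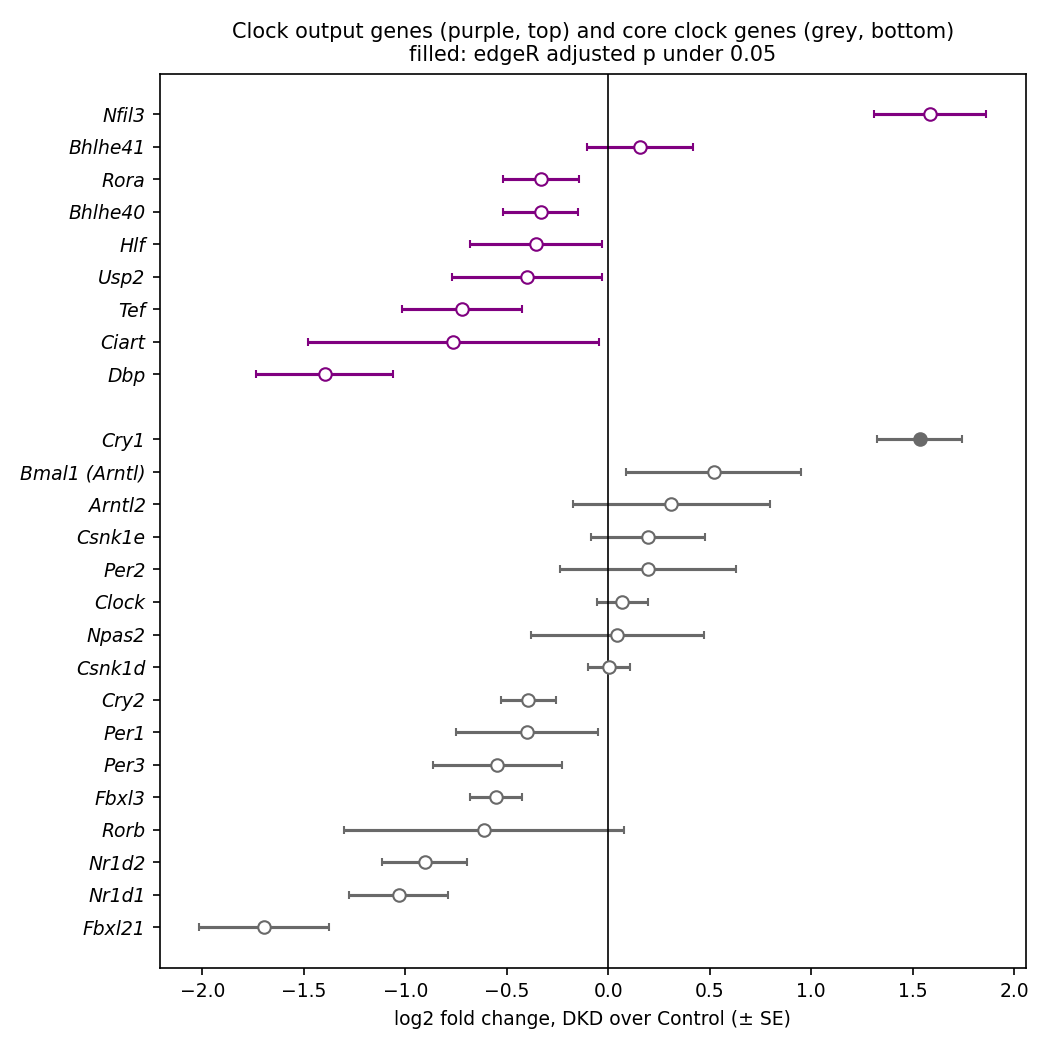
Log2 fold change of DKD over Control with its SE (horizontal axis) for the 9 clock output genes (top) and 16 core clock genes (bottom), filled where the edgeR adjusted p is under 0.05. Nfil3 at 1.59 and Cry1 at 1.53 lie far to the right, Fbxl21 at −1.70 and Dbp at −1.40 far to the left, and Cry1 is the single filled symbol.

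Genes reported as targets of DBP, TEF and HLF in liver and kidney were taken as a list of 14, of which 11 were tested. By edgeR 0 passed, against 1.16% of all genes. Unadjusted, 4 had a p under 0.05 (2 in each direction), against 22.6% of all genes. DESeq2 called 3, against 13.7% of the genes it tested, limma-voom called 0, and 4 (36.4%) had groups without overlap, against 30.7% of all genes. The median log2 fold change was −0.33, against 0.0029 over all genes. Cyp2a5, a cytochrome P450 that hydroxylates coumarin, was measured at 70.1, 98.3 and 132 CPM in DKD and at 232, 245 and 173 CPM in Control (log2 fold change −1.12 ± 0.25, edgeR adjusted p 0.0711), though its reads can be shared with the near-identical Cyp2a4. Nr1i3, the xenobiotic receptor CAR, was measured at 3.53, 1.70 and 2.62 CPM in DKD and at 0.957, 0.988 and 0.859 CPM in Control (1.48 ± 0.35, adjusted p 0.0763). Exons of Tomm40l cover 74.9% of the exonic bases of Nr1i3 on the opposite strand, so its counts are uncertain.

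The renal list held 15 transport and signalling genes known to cycle or to depend on clock factors. Of these 15 genes 1 rose and 0 fell by edgeR, against 1.16% of all genes called. Unadjusted, 5 had a p under 0.05 (4 above and 1 below 0, against 22.6% of all genes), DESeq2 called 4 (against 13.7%), limma-voom called 1, and 7 (46.7%) had groups without overlap, against 30.7%. The gene called by edgeR was Slc6a9, a glycine transporter, at 70.4, 62.2 and 92.7 CPM in DKD and 27.2, 25.6 and 25.5 CPM in Control. Its log2 fold change was 1.53 ± 0.16 with an edgeR adjusted p of 0.0192. The call was lost without Control replicate 1, Control replicate 2 or DKD replicate 1, at adjusted p 0.0937, 0.0794 and 0.0885. Exons of other genes cover 30.2% of its exonic bases on the opposite strand. The list median was 0.14.

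The last lists covered other inputs to these genes, and for each the shares over all genes were again 1.16% by edgeR, 22.6% at an unadjusted p under 0.05, 13.7% with DESeq2 and 30.7% without overlap of the groups. Among 10 genes that cycle in most organs edgeR called 0, with 4 at an unadjusted p under 0.05 and 5 without overlap, and DESeq2 called 2 and limma-voom 0. In that list Gys2, the liver glycogen synthase, was measured at 4.95, 6.33 and 2.93 CPM in DKD and at 14.8, 14.2 and 32.6 CPM in Control (−2.12 ± 0.41, edgeR adjusted p 0.0573). Without Control replicate 3 the log2 fold change of Gys2 was −1.62. Nampt, which makes NAD from nicotinamide, was measured at 180, 185 and 329 CPM in DKD and 117, 123 and 154 CPM in Control (0.82 ± 0.26, adjusted p 0.130). For Nampt the log2 fold change was 0.48 without DKD replicate 3. Among 15 glucocorticoid-responsive genes edgeR called 0, with 5 at an unadjusted p under 0.05 and 6 without overlap, and DESeq2 called 3 and limma-voom 0. Their 2 smallest p-values belonged to Lcn2, an iron-siderophore binding protein released by injured tubules (3.36 ± 0.95, adjusted p 0.106), and the metallothionein Mt1 (1.07 ± 0.31, adjusted p 0.111). Lcn2 was measured at 31.6, 32.3 and 113 CPM in DKD and at 7.55, 9.02 and 0.581 CPM in Control. Mt1 was measured at 90.4, 64.4 and 136 CPM in DKD and at 58.3, 47.6 and 32.2 CPM in Control. Without DKD replicate 3 the log2 fold change of Lcn2 was 2.48 and that of Mt1 was 0.75. Of 15 hypoxia-responsive genes 1 rose and 0 fell by edgeR. Unadjusted, 7 had a p under 0.05 (5 above and 2 below 0) and 9 (60.0%) without overlap, and DESeq2 called 7 and limma-voom 1. The gene called by edgeR was Egln3, a prolyl hydroxylase, at 32.0, 35.6 and 42.7 CPM in DKD and 16.8, 21.0 and 14.4 CPM in Control (1.08 ± 0.18, edgeR adjusted p 0.0446). The call of Egln3 was lost on leaving out any library but Control replicate 3, at adjusted p between 0.0625 and 0.153, with library totals (0.0890) and with no filter (0.0861). The medians of these 3 lists were 0.18, 0.30 and 0.15.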

How the data were processed

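Polyadenylated RNA was made into dUTP strand-marked libraries and read in pairs of 150 bases, per the labels' protocols. The deposited table holds the authors' raw read counts, without normalization, on build GRCm39. The submitters' processing notes name fastp, HISAT2, StringTie and edgeR. No version, annotation or strand setting of the counting is stated there. The values 4 and 8 occurred 6267 and 2929 times, against 3129 for 3 and 1784 for 7, so low counts may be rescaled coverage.

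Symbols, exon lengths and exon overlaps came from GENCODE M21 on GRCm38, which matched 55141 identifiers and left 260 unmatched. Genes were kept by filterByExpr (minimum count 10), scaled by TMM and tested by group alone with edgeR 4.0.16 (R 4.3.3). DESeq2 1.42.0 and limma 3.58.1 (voom) were alternatives, with other scalings, filters, trends and each library left out. The biological coefficient of variation came to 33.2%. Chi-square per degree of freedom was at least 36.4 in every within-group pair, so no library was a copy, with log2 CPM correlations (prior count 2) between 0.954 and 0.980 within groups. The procedure was tested on simulated counts drawn independently for each gene, without differences in tubule content between libraries. That test therefore does not bear on such differences.

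The 9 genes, the lists and the tests were chosen with earlier results of these data known. Beside the 9, a list gave up to 4 genes past the threshold or its 2 smallest p-values, and 6 core clock genes were named for their levels. Items withheld from the lists and nearest patterns are not reported here. The nearest patterns were taken from genes with at least 5 CPM, without predicted models. A standard error is the log2 fold change over the root of the quasi-likelihood F.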

Additional observations from a re-analysis of the deposited data

How the results depend on the processing

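Over all genes 228 passed, against 2483 with DESeq2, 204 with limma-voom and 516 with a filter of at least 1 CPM in 3 libraries. With no filter 56 passed, with the replicate number as a block 0, and with a library left out 1 to 386. Of the 9 clock output genes 0 passed, against 2 with DESeq2, 1 each with the CPM filter, library totals, upper quartile factors and limma-voom, and 0 to 1 with a library left out. Of the core clock list 1 passed, against 5 with DESeq2, 2 with the CPM filter, 0 with no filter, 0 with the replicate block, and 0 to 2 with a library left out. PAR bZIP targets gave 0, against 3 with DESeq2 and 0 to 2 with a library left out. The renal list gave 1, against 4 with DESeq2, 3 with the length trend removed, 2 with the CPM filter or upper quartile factors, 0 with the replicate block, and 0 to 2 with a library left out. The rhythmic, glucocorticoid and hypoxia lists gave 1 together, against 12 with DESeq2, 2 with the CPM filter, 0 with no filter, 0 with the replicate block, and 0 to 1 with a library left out. Some settings also differ in the number of genes tested or libraries fitted, and the cause of these shifts was not tested. Signs turned for Ciart (−1.26 without DKD replicate 2 to 0.44 without Control replicate 3), Bhlhe41 (−0.063 without DKD replicate 3 to 0.30 without DKD replicate 1) and Per2 (−0.14 without Control replicate 1, −0.015 without DKD replicate 1, and up to 0.83 without Control replicate 3). No scaling, filter, trend or other tool turned the sign of any of the 9 genes. Replicate numbers did not pair the libraries: the correlations of deviations between same-numbered libraries were −0.18, 0.066 and −0.22. Counts of a few CPM limit what Ciart and Bhlhe41 can show.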

Other observations

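Among 11048 other genes with a mean of at least 5 CPM, those whose log2 CPM followed the D-box activators most closely over the 6 libraries were not on the lists of clock genes. For Dbp they included Esrrg, an orphan nuclear receptor (Pearson r 0.998), and Strn3 (0.997). Esrrg was measured at 43.7 ± 4.43 CPM in DKD and 60.9 ± 10.7 CPM in Control (SD, n = 3 each). For Tef they were the leucine-degrading dehydrogenase Ivd (0.998), Nudt12 (0.997) and Ngly1 (0.997), with Ivd at 314 ± 62.6 CPM in DKD and 474 ± 141 CPM in Control. For Hlf they were Aebp2 (0.998), Wdr13 (0.997) and Adal (0.997). These values describe 6 libraries that also differ in group and tubule content, and 524 genes exceeded 0.95 for Dbp, 427 for Tef and 103 for Hlf, so such likeness is common here.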
